A study of Homo sapiens with 2 samples.

Results

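C/D box snoRNAs were examined in ribosome profiling libraries of HEK293T cells, a transformed human embryonic kidney line that is easily transfected. The members were chosen from the count table as genes of the snoRNA biotype whose name starts with SNORD and whose counts in both libraries sum to 20 or more. This rule kept 49 of the 312 SNORD genes, among 61554 rows in all. The RiboW library came from cells given the mCherry and EGFP reporter plasmid, labelled as carrying a TCG codon in EGFP, together with the TetRS plasmid. The RiboWo library came from cells given the TetRS plasmid without that reporter. The treatment label of RiboWo is garbled, and its group follows the sample name and the protocol. Both groups were WT for genotype and were treated with TetBu. In both, the TetRS plasmid, named for the synthetase chPylRSIPYE under the CMV promoter, also carried 12 cassettes of U6-CM15CGA. Cells were harvested 30 h after expression began, after 1 min in cycloheximide at 0.1 mg/mL.

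Each group had 1 library, so each difference is between single libraries, with no replicate check and no p-value. A transient transfection reaches a mixed population, and an effect of the reporter cannot be told apart from a difference between dishes or library preparations. No matched RNA library was used here. More snoRNA molecules and better recovery of their fragments therefore cannot be told apart.

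C/D box snoRNAs are short nucleolar RNAs named for the C and D sequence boxes that fold them and bind the core proteins. With fibrillarin (FBL), NOP56, NOP58 and SNU13 they form particles that guide 2′-O-methylation of ribosomal and spliceosomal RNA at sites paired to the snoRNA. A few act in cleavage of the rRNA precursor. In human cells most are cut out of introns of a host gene, and many hosts encode proteins of the translation machinery. As they are not translated, their reads in a footprint library do not report translation.

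Because the snoRNAs within 1 host share its start site, stretches of host promoters are shown from 40 bases before to 20 bases from the start. They are a selection among hosts with a single promoter entry that hold the most counted members, several members or a member called below. Other such hosts, among them AP1G1, TSR1 and HSPA8, are not shown. SNORD83A lies in RPL3, SNORD93 in SNHG26, SNORD100 and SNORD101 in RPS12, SNORD17 in SNX5, SNORD94 in PTCD3, and SNORD53, SNORD53B and SNORD92 in WDR43. Sequences are from RefSeq for GRCh38.p14, on the strand of the host, and capitals mark a C followed by at least 5 pyrimidines that starts within 10 bases of the start site. Such a run is the sequence feature of TOP mRNAs, the class to which ribosomal protein messages belong.
RPL3, chr22:39319604-39319663, minus strand: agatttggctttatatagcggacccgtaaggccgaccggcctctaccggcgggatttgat
SNHG26, chr7:22854200-22854259, plus strand: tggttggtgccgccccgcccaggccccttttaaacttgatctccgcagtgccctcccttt
RPS12, chr6:132814529-132814588, plus strand: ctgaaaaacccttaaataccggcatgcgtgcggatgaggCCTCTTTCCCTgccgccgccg
SNX5, chr20:17968775-17968834, minus strand: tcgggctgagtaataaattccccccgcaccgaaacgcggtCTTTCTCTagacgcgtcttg
PTCD3, chr2:86106195-86106254, plus strand: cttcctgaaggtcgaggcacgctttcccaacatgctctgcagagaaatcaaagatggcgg
WDR43, chr2:28894627-28894686, plus strand: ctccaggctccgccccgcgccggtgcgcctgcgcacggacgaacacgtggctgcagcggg

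Of the 38 host genes, 30 had a promoter entry, and 14 of these (46.7%) had such a run on the host's strand in at least 1 entry. Over all 35116 promoter entries the share was 18.5%, and over the 39 entries of these hosts it was 35.9%. The 15 snoRNAs of hosts with the run had a median log2 ratio of 0.28, and the 21 of hosts without it had 0.40, on the scale defined below. The run is a description of these letters and not a mapped start site.

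The summed counts over all rows were 2519301 in RiboW and 3151403 in RiboWo. The members held 34978 counts or 1.39% of RiboW (exact 95% interval 1.37 to 1.40%) and 28415 counts or 0.902% of RiboWo (0.891 to 0.912%). All intervals are Clopper-Pearson intervals for counting error, and reads copied by PCR are not independent molecules. Of the other small RNA classes, annotated miRNA genes held 12.5% of RiboW and 30.4% of RiboWo. Protein-coding genes held 13.7% and 9.77%. The share of a class therefore moves with the others, and the ratio of every gene below is given relative to the median of the 1060 protein-coding genes with at least 100 counts in all. Scaling by total counts instead adds 0.57 to every log2 ratio, and the TMM factors of edgeR add 0.11. Markers of HEK293 cells fixed for the check had counts in all 5 genes, led by VIM with 148 counts in RiboW and 131 in RiboWo. The lowest of them, KRT8, had only 3 and 4. Leukocyte markers had 5 and 20 counts with PTPRC at 0, fibroblast markers 17 and 55, and erythroid and serum markers 0 and 16, with HBA1 at 0. Their part in the results was not tested.

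A small number of snoRNAs supplied most of the reads. The 8 most counted members of each library, which were the same genes, held 71.0% of the member counts in RiboW and 77.4% in RiboWo. All 49 members spanned 12 to 4791 counts in RiboW (median 238) and 10 to 4901 in RiboWo (median 141). Because the summed count chose the members, these levels describe them and carry no test. The order of members was alike, with a Spearman correlation of 0.97 across the 49 genes, which share both libraries and their lengths.

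SNORD83A, which has no known rRNA or snRNA target, was the most counted member (chromosome 22, 39315213 to 39315307, within the ribosomal protein gene RPL3). It had 4791 counts in RiboW and 4588 in RiboWo. SNORD93, an 18S rRNA guide in the lncRNA SNHG26 (chromosome 7, 22856613 to 22856686), had 3104 and 4901 counts. It was first by count in RiboWo, while SNORD83A, SNORD104 and SNORD14E exceeded it in RiboW. SNORD104, in the lncRNA SNHG25 (chromosome 17, 64146083 to 64146152), had 4130 counts in RiboW and 2281 in RiboWo. Per length, the deposited RPKM placed SNORD104 first in RiboW at 20533 and SNORD93 first in RiboWo at 23971. The leading place thus belonged to different genes in the libraries by count and per length.

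SNORD14E, a copy of the U14 snoRNA in the chaperone gene HSPA8, had 3203 counts in RiboW and 2053 in RiboWo. SNORD66, an 18S rRNA guide in the initiation factor gene EIF4G1, had 3069 and 2044. SNORD117, in the RNA helicase gene DDX39B, had 2929 and 1853. These 3 had more counts in RiboW despite its lower total, and their log2 ratios lay close together at 0.40, 0.34 and 0.42. SNORD101, in RPS12 and without a known target, had 1965 counts in RiboW and 2613 in RiboWo. SNORD82, an 18S rRNA guide in the nucleolin gene NCL, had 1648 counts in each. The 8 leading members therefore divided, with 4 above and 4 below the median coding gene.

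The make-up of the member reads does not depend on scaling, and SNORD93 had the widest gap of share. It supplied 8.87% of member counts in RiboW (8.58 to 9.18%) and 17.2% in RiboWo. SNORD101 supplied 5.62% in RiboW and 9.20% in RiboWo. In the other direction, SNORD104 supplied 11.8% in RiboW and 8.03% in RiboWo. These shifts within the class were large beside counting error, whose interval for SNORD93 in RiboWo was 16.8 to 17.7%.

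As single genes, most C/D box snoRNAs had a log2 ratio above 0 by point estimate. Of the 49, 37 (75.5%) lay above the median coding gene and 12 below, beside 45.7% of all rows with a summed count of at least 20 above it. As deposited, 40 members had more counts in RiboW. The median log2 ratio was 0.34, with quartiles of 0.02 and 0.66, against -0.07 over all 7023 rows with a summed count of at least 20. For 25 members the interval lay above 0, for 8 it lay below, and for 16 it included 0. Only 4 members were called higher, meaning at least 2-fold with an interval above 0, and none was called lower. The 4 make 8.16% of the members, beside 4.97% of all rows called higher, and the lower calls make 0.0% beside 8.96%. Among genes with at least 100 counts, 2 of 42 members (4.76%) were called higher, beside 1.63% of the 1347 other rows, and none lower, beside 5.35%. These counts of calls are small, and a share near the background is not read as a result about the class.

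The median hides the weight of the leading members. Pooled over all members, the log2 ratio was 0.06 (0.03 to 0.08). The 8 most counted gave -0.07 (-0.09 to -0.04) and the other 41 gave 0.41 (0.37 to 0.46). The less counted members were thus the ones with the higher ratio as a group, although over the 49 genes the Spearman correlation of ratio with summed count was only -0.10.

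SNORD94, a guide of U6 snRNA, had the highest ratio (chromosome 2, 86135870 to 86136006, in the mitochondrial translation gene PTCD3). It had 238 counts in RiboW and 77 in RiboWo, a log2 ratio of 1.38 (1.01 to 1.77). Its host, whose start is shown above, had 32 and 17 counts. SNORD17, a 28S rRNA guide and the longest member, followed (chromosome 20, 17962710 to 17962946, in the sorting nexin gene SNX5). It had 613 counts in RiboW and 202 in RiboWo, a log2 ratio of 1.36 (1.13 to 1.59). These were the called members with at least 100 counts, and both intervals lay wholly beyond 2-fold.

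SNORD53, a 28S rRNA guide in WDR43, had 44 counts in RiboW and 15 in RiboWo (1.31, 0.44 to 2.26). SNORD71, a guide of 5.8S rRNA in the adaptor gene AP1G1, had 47 and 19 (1.06, 0.27 to 1.91). Both rest on few reads, and their intervals reach well under 2-fold. With the deeper library thinned to the depth of the other, 3 members were called in place of 4.

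Of the 10 highest by lower bound, the rest were under 2-fold. SNORD38A, a 28S rRNA guide, had 760 counts in RiboW and 342 in RiboWo (0.91, 0.72 to 1.10). SNORD1B, a 28S rRNA guide in the lncRNA SNHG16, had 695 and 320 (0.87, 0.68 to 1.07). SNORD90, in RC3H2, had 503 and 241 (0.82, 0.59 to 1.04). The intervals of these 3 span the 2-fold line, and that of SNORD17 lies above all of them. SNORD104 was at 0.61 (0.54 to 0.69) and SNORD12C, in ZFAS1, at 0.66 (0.40 to 0.93). SNORD105, an 18S rRNA guide in PPAN, was at 0.92 (0.48 to 1.38), and SNORD91B, in TSR1, was at 0.92 (0.49 to 1.35).

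At the low end, SNORD93 was at -0.90 (-0.97 to -0.84) and SNORD101 at -0.66 (-0.74 to -0.57). Under total counts they were the only members still below 0, at -0.34 and -0.09. SNORD82 at -0.24 (-0.34 to -0.14) and SNORD41, a 28S rRNA guide in TNPO2, at -0.30 (-0.45 to -0.15) turned positive under total counts. SNORD83A, at -0.18 (-0.24 to -0.12), did so under total counts and, at 0.01, under DESeq2 size factors. The lower position of these 3 is thus relative to coding genes. SNORD14A at -0.44 (-0.82 to -0.06), SNORD59A at -0.42 (-0.83 to -0.02) and SNORD72 at -0.37 (-0.73 to -0.0038) also had intervals below 0, with 240, 209 and 257 counts in all, and likewise lay above 0 under total counts. SNORD53B at -0.13 and SNORD127 at 0.08 completed the 10 lowest by upper bound, with intervals that included 0.

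By role, of 17 guides of 28S rRNA 14 lay above 0, near the share over all members, with a median of 0.41 between SNORD72 and SNORD17, and 2 were called higher. Of 9 guides of 18S rRNA, 6 lay above 0, with a median of 0.28 between SNORD93 and SNORD105, and none was called. All 3 guides of U6 snRNA lay above 0, with SNORD7 lowest at 0.22 (-0.10 to 0.54) from 194 counts in RiboW and 141 in RiboWo. All 3 members listed as without a known target lay below 0, between SNORD101 and SNORD83A. The difference between these groups was not tested, and pooled 18S guide counts, at 9241 in RiboW and 9571 in RiboWo, are led by SNORD93. The remaining 14 members in no list had a median of 0.43, with 13 above 0 and 1 called higher. The lists were written by hand, and these 14 were not sorted by target. The position of the 3 listed without a target is therefore not read as a trait of such snoRNAs.

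Members that act in cleavage or maturation of the rRNA precursor were sparsely measured. Of 13 listed genes for U3, U8, U13, U14 and U22, 3 were members. U14, which in yeast is essential for 18S rRNA production, was measured as SNORD14E at 0.40 (0.32 to 0.48) and as SNORD14A at -0.44. The copies thus differed in direction relative to coding genes, but SNORD14A lay above 0 under total counts. SNORD13, the U13 snoRNA needed for acetylation of 18S rRNA, had 112 counts in RiboW and 97 in RiboWo (-0.04, -0.44 to 0.37). U3, the most abundant C/D snoRNA of the nucleolus, gave almost no reads under its own names. The copies named SNORD3 had 17 counts in RiboW and 4 in RiboWo, and the 50 rows named U3 had 51 and 37. The values for U3 are uncertain, because its copies are nearly identical and the counting could divide or discard their reads. SNORD118, the U8 snoRNA, was at 0 in both libraries, which by counting error alone allows up to 3 counts in each. The listed length of its host TMEM107 equalled 100% of the locus. Whether reads that match both were left out by the counting was not tested, so the value for U8 is uncertain too.

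Members of the imprinted clusters were not measured. The 83 rows of SNORD115 and SNORD116, which lie in SNHG14 at the Prader-Willi locus and are known from neurons, were all at 0. Of 39 rows of SNORD113 and SNORD114, from the cluster with MEG8, 7 had a count, with 25 counts in RiboW and 8 in RiboWo. None reached the minimum. SNORD114-3 came closest with 11 and 6 counts.

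Near the minimum, SNORD121A had 12 counts in RiboW and 10 in RiboWo, SNORD48 had 12 and 12, and SNORD126 had 15 and 12. Just outside it, SNORD3H had 14 and 4 counts, SNORD114-3 had 11 and 6, and SNORD9, a guide of U6 snRNA, had 5 and 6. The rule thus cut through genes with few reads in each library. A further 14 SNORD genes had a count below the minimum and 246 rows were at 0. All SNORD genes outside the members together had 49 counts in RiboW and 34 in RiboWo.

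Many SNORD genes at 0 lay beside well counted ones. In RPL3, SNORD83A had 9379 counts over both libraries, and SNORD83B and SNORD43 were at 0. In HSPA8, SNORD14E had 5256, and SNORD14C and SNORD14D were at 0. In SNHG16, SNORD1B had 1015, and SNORD1A and SNORD1C were at 0. Of the 38 hosts of members, 14 also held a SNORD row at 0. Whole host genes were empty too: all 7 SNORD rows of SNHG1, all 4 of RPL13A, all 4 of RPL7A and all 4 of NOP56 were at 0. The host rows themselves were not, since SNHG1 had 2146 counts in RiboW and 1744 in RiboWo, and RPL7A had 1289 and 936.

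The listed length of SNHG1 equalled 100% of its locus, so that any position in it counts as host sequence. For hosts of members the listed length was a median of 28.2% of the locus, taken over 48 members, and it was 27.8% over the 217 SNORD rows at 0 that had a host. Outside SNHG14 and MEG8, which hold many of these rows, it was 51.0% over 100 SNORD rows at 0. Whether reads that match both a snoRNA and a host exon, or several copies, were left out by the counting was not tested, and no source used here states how such reads were handled. The GAS5 row, a host lncRNA known for a large set of C/D snoRNAs, had 8311 counts in RiboW and 6384 in RiboWo. No row carried the names of its snoRNAs SNORD44, SNORD47, SNORD74 to SNORD78 or SNORD80, so they were not analysed here.

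SnoRNAs from the same host did not always share a ratio. Of 12 pairs of members within 8 hosts, 5 had an interval of the difference that excluded 0, and these differences do not depend on scaling. In RPS12, SNORD100, an 18S rRNA guide, had 75 counts in RiboW and 52 in RiboWo (0.28), against SNORD101 at -0.66. The difference was 0.94 (0.40 to 1.49), although both follow the start site shown above. In WDR43, SNORD53 exceeded SNORD53B, with 150 and 139 counts, by 1.44 (0.49 to 2.46), and it exceeded SNORD92 by 1.04 (0.11 to 2.04). In PPAN, SNORD105 exceeded SNORD105B by 0.56 (0.06 to 1.07).

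Other pairs lay together. In SF3B3, SNORD111B had 477 counts in RiboW and 313 in RiboWo, and SNORD111 had 355 and 234, a difference of 0.01 (-0.32 to 0.33). In GNL3, SNORD19C and SNORD69 differed by 0.03 (-0.45 to 0.52). In NOP58, whose protein is itself part of the C/D particle, SNORD70 and SNORD11 differed by 0.01 (-0.34 to 0.37). Differences up to the bounds of those intervals were not detectable at these counts.

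The snoRNA and the row of its host gene often differed. For 31 members the host had at least 100 counts, and the snoRNA's ratio exceeded the host's for 16, was lower for 6, and had an interval of the difference that included 0 for 9. SNORD17 exceeded SNX5, with 74 counts in RiboW and 68 in RiboWo, by 1.48 (0.93 to 2.03). SNORD111B exceeded SF3B3, with 213 and 260, by 0.90 (0.55 to 1.24). SNORD101 lay under RPS12, with 121 and 83, by -0.96 (-1.38 to -0.53). SNORD82 lay under NCL, with 691 and 418, by -0.73 (-0.93 to -0.52). By contrast SNORD14E and HSPA8, with 178 and 112, differed by -0.03 (-0.39 to 0.33). Across the 31 members the Spearman correlation of both ratios was -0.38, and -0.49 over 23 hosts with 1 member each. The points share the libraries, and host counts are low. A snoRNA is cut from an intron, while reads of a host row can come from its spliced message. The part of intron reads in host rows was not tested, and the listed length of HSPA8 was 84.4% of its locus. The values are therefore set side by side only.

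By length, the 5 members of at least 120 nt were all above 0, with a median of 0.92, and included SNORD17 and SNORD94. SNORD91B had 152 counts in RiboW and 68 in RiboWo, and SNORD91A, in the same host TSR1, had 234 and 139 (0.51, 0.20 to 0.82). SNORD15B, in RPS3, had 339 and 240 (0.25, 0.01 to 0.50). The 10 members under 75 nt had a median of -0.02, between SNORD93 and SNORD38A, and held 13020 counts in RiboW and 12995 in RiboWo. Over the 49 members the Spearman correlation of ratio with listed length was 0.31, and 0.18 without the 5 longest. Over the 42 measured H/ACA box snoRNAs, the related class described below, it was 0.07. The genes of each class share both libraries, and these correlations are weak. A part of fragment size in these ratios was not tested, since read lengths were not used here.

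H/ACA box snoRNAs, which guide pseudouridylation with other core proteins, lay close to the C/D class. Their 42 genes with at least 20 counts had a median of 0.37 beside 0.34, and 73.8% lay above 0 beside 75.5%. Of them 14.3% were called higher and 0.0% lower. Pooled over all their genes, H/ACA snoRNAs had a log2 ratio of 0.11 (0.08 to 0.14) beside 0.06 for the C/D members. The 10 measured scaRNAs, guides of the Cajal body, had a median of 0.11, snRNA genes 0.09 and miRNA genes -0.94. Coding genes with at least 20 counts had a median of -0.05. The C/D median thus lay near that of the other small nucleolar RNAs and on the other side of 0 from miRNA genes, and these differences were not tested, with 1 library per group.

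The gene rows of the particle's core proteins gave no call in either direction. NOP56 and NOP58 are themselves snoRNA hosts, and the listed length of NOP56 was 85.3% of its locus. The part of intron or snoRNA reads in these rows was not tested. FBL, the methyltransferase, had 130 counts in RiboW and 83 in RiboWo (0.40, -0.01 to 0.82). NOP56 had 220 and 147 (0.34, 0.03 to 0.65), NOP58 had 58 and 65 (-0.41, -0.94 to 0.12), and SNU13 had 67 and 55 (0.04, -0.50 to 0.58). All 4 core genes were measured, and the intervals of 3 of them included 0. Of 12 assembly factors with at least 20 counts, 5 lay above 0 and 7 below, and none was called. NOLC1, a nucleolar chaperone of snoRNPs, had 264 and 250 counts (-0.17), and the ATPases RUVBL1 and RUVBL2 were at 0.28 and 0.15. Of 5 measured proteins of the U3 particle none was called, with DCAF13 at 0.00.

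Among genes of intron release and end trimming, calls were made in both directions. TENT4B, a poly(A) polymerase that marks snoRNA ends for trimming, had 28 counts in RiboW and 11 in RiboWo and was called higher (1.10, 0.05 to 2.26). The nuclear exonuclease XRN2 had 17 and 39 and was called lower (-1.44, -2.36 to -0.59). The debranching enzyme DBR1 had 26 and 11 (1.00, -0.07 to 2.16), and EXOSC10, the nuclear exosome nuclease, had 85 and 87 (-0.28, -0.73 to 0.17). Of the 7 measured, 1 was called in each direction, beside 4.81% of coding genes called higher and 8.05% called lower, and the counts behind both calls are low.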

How the data were processed

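Whole-number counts per gene were deposited by the authors as 1 table. The submitters' processing notes list TopHat2 2.0.12, HTSeq 0.9.1, GRCh37 and hg19, with no role or order. No source used here states how strand and multiple matches were handled. All 49 members overlapped their RefSeq GRCh38.p14 locus, so coordinates are GRCh38. The deposited RPKM values equalled count over listed length and 1 library size, 2873483 in RiboW and 2762965 in RiboWo.

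Ratios of counts, RiboW over RiboWo, were divided by that of the median of 1060 protein-coding genes with 100 counts or more. Exact 95% Clopper-Pearson intervals, or conditional intervals for differences of ratios, cover counting error only. A call needs 2-fold and an interval excluding 0. A host is the gene that contains the snoRNA on its strand, the most counted if several. Named members were the 10 highest and 10 lowest by interval bound, the 10 most counted per library, the extremes of each list, listed processing genes and those by the minimum. Others named within a host or length class, and proteins under 100 counts, were chosen after their values were seen. Members and lists were chosen with earlier results of these data known. Steps were tested on simulated data. Python 3.11.15, numpy 2.4.6, pandas 2.3.3, scipy 1.17.1, R 4.3.3, edgeR 4.0.16 and DESeq2 1.42.0 were used. Scalings, minimums, folds, thinning, member sets and RPKM plus 0.1 were varied. SnoRNA sequences were not used here. The values of 1 host gene are not reported here.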

Additional observations from a re-analysis of the deposited data

How the results depend on the processing

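The absence of a lower call held under every alternative except a threshold of 1.5-fold, which gave 2 lower and 14 higher. The 4 higher calls became 7 under TMM, 10 under DESeq2 size factors and 18 under total counts, and 2 with at least 100 counts. The median log2 ratio of 0.34 became 0.45, 0.53 and 0.91 under those 3 scalings, and lay between 0.31 and 0.39 under the other alternatives. Members above 0 numbered 37 in the setting reported, and 38, 40 and 47 under the 3 scalings. Each scaling adds a positive constant to every ratio, so no positive ratio could change direction. The share of counts in members was 1.58% in RiboW and 0.919% in RiboWo without the plasmid rows, 2.52% and 1.65% without mitochondrial rRNA, 1.59% and 1.30% without miRNA genes, and 9.18% and 8.45% of coding plus member counts. Leaving out overlapping or numbered copies removed 0 members. No paired analysis was possible because each group had 1 library, and no library could be left out. Depth limits members under 100 counts, of which there were 7.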

Other observations

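Among snoRNA rows that carry no symbol in the table, the gene ENSG00000200897 (chromosome 12, 107374747 to 107374827, 81 nt) had 32 counts in RiboW and 5 in RiboWo, a log2 ratio of 2.43 (1.06 to 4.15) relative to the median coding gene. It lies outside the member rule because of its missing name, and was singled out after its value was seen.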
